A study of Homo sapiens with 12 samples.

Results

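The 42 genes described here are type I interferon-stimulated genes, genes that cells switch on when interferon alpha or beta binds its receptor. They were chosen by name, as 42 rows among the 33514 gene symbols of the deposited single-cell RNA sequencing (scRNA-seq) count tables. The tables cover SCC1, SCC6 and SCC25, which are 3 established cell lines of head and neck squamous cell carcinoma (HNSCC). Cultures received cetuximab, the clinical antibody against EGFR (the receptor of epidermal growth factor), at 100 nM every day for 5 days, or phosphate-buffered saline (PBS) as its untreated control. Each of the 6 groups had 2 replicates, so that there were 12 libraries, all from cells grown in medium with serum and none given interferon as far as the labels say. The control was the buffer alone and not another antibody, and each line stands for 1 tumour.

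In textbook accounts, type I interferon binds the IFNAR1 and IFNAR2 receptor chains, and the kinases JAK1 and TYK2 then phosphorylate transcription factors of the STAT family. A complex that holds STAT2 and IRF9 binds a short DNA element, the interferon-stimulated response element (ISRE), in the promoters of the target genes. The targets detect viral RNA, stop its translation, hold virions at membranes or tag proteins with the ubiquitin-like protein ISG15, and type III interferons (IFNL1 to IFNL3) switch on much the same genes through another receptor that is found mostly on epithelial cells.

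The ISRE carries the motif by which many of the 42 genes are known, so it was looked for in their promoters. Promoters of RefSeq (GRCh38.p14, from 250 bases before to 50 bases after each start) were matched for 32 of the 42 genes, one of them (DDX58) through its newer symbol RIGI. The ISRE core, searched as GAAA, then 2 bases of any kind, then GAAA, on both strands, stood in 23 of these 32 promoters (71.9%), against 4.38% of the 27305 genes in the table. The gamma-activated sequence TTCNNNGAA, which reads the same on both strands and which overlaps an ISRE match in 5 members (IFI27, MX1, EPSTI1, BST2 and IFITM1), was found in 10 of the 32 (31.3%) and in 9.38% of all genes. A match is a description and not a bound site, and no match says only that these letters are not in this window. To show what the motif looks like in the genes that follow, a stretch of 50 bases upstream of the start site is given for the members that rose across the lines with cetuximab and had a match there (IFI44, IFIT1 and MX1 passed that test only when the replicate number was fitted as a block), with the motif in capitals, 5′ to 3′ on the strand of the gene.
IFI6 (chr1:27672258-27672307, minus strand): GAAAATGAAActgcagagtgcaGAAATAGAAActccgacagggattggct
IFI27 (chr14:94110619-94110668, plus strand): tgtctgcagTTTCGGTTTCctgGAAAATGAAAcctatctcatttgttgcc
IFI44 (chr1:78649739-78649788, plus strand): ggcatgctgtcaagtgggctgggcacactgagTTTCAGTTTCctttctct
IFI44L (chr1:78620353-78620402, plus strand): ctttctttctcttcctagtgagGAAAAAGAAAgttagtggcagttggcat
IFIT1 (chr10:89392498-89392547, plus strand): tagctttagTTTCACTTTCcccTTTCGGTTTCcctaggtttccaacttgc
ISG15 (chr1:1013368-1013417, plus strand): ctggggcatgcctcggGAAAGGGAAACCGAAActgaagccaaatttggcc
MX1 (chr21:41431832-41431881, plus strand): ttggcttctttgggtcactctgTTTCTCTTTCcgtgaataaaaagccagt
RSAD2 (chr2:6877610-6877659, plus strand): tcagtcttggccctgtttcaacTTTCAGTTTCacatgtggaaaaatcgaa
EPSTI1 (chr13:42992264-42992313, minus strand): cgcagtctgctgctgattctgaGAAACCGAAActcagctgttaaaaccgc
In IFI6, IFI27, IFIT1 and ISG15 the printed stretch held 2 matches, which overlap in ISG15. In the other members shown it held 1. For genes with several annotated starts, the first window with a match before its start was used. The stretches of IFI27, MX1 and RSAD2 therefore lie inside the annotated span of the gene, before an internal start.

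Libraries held 961 to 2854 cells and 57057402 to 112170073 unique molecular identifiers (UMIs), with medians of 24078.5 to 54864 UMIs per cell. Between 3 and 10 cell barcodes were found in both replicates of a group, and between 1 and 13 in a pair of libraries from different groups. All 8 squamous markers were measured, although KRT5 stayed between 0.967 and 4.57 CPM (UMI counts scaled to 1000000 per library) and KRT14 between 0.379 and 2.58 CPM in SCC6. The summed 7 leukocyte markers ranged from 0.0395 to 14.04 CPM and nearly all of this was CD14 in SCC1, while PTPRC and CD3E did not exceed 0.0669 CPM in any library. The 4 endothelial markers together reached at most 0.670 CPM, the 3 markers of red cells and liver 0.593 CPM, and the 5 fibroblast markers ranged from 0.917 to 73.0 CPM, mostly LUM in SCC25 and COL1A1 in SCC6 with cetuximab. The part of these markers in the results was not tested. For the 42 genes the SCC25 libraries with cetuximab lay furthest apart, the first at a summed 20371 CPM and the second at 9602.5. Values without the first are given for the medians and for the calls across lines, not for single genes. The SCC1 replicates also differed, with sums of 17732 and 11322 CPM with PBS and 33218 and 23508 CPM with cetuximab.

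Untreated, the 3 lines held very unequal amounts of interferon-stimulated transcripts. Summed over the 42 genes, the PBS replicates of SCC1 held 17732 and 11322 CPM, those of SCC25 5980 and 6588 CPM, and those of SCC6 1299 and 1175 CPM. The order was SCC1, SCC25, SCC6, and no PBS library overlapped with one of another line. Most of each sum came from 4 genes, LY6E, IFITM3, IFI27 and ISG15, and without them the PBS sums were 5707 and 3472 CPM in SCC1, 1215 and 1539 CPM in SCC25 and 214 and 234 CPM in SCC6. In SCC1 42 members reached 1 CPM in both PBS libraries and in SCC25 40, but in SCC6 28 and 29.

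**Figure D1:**
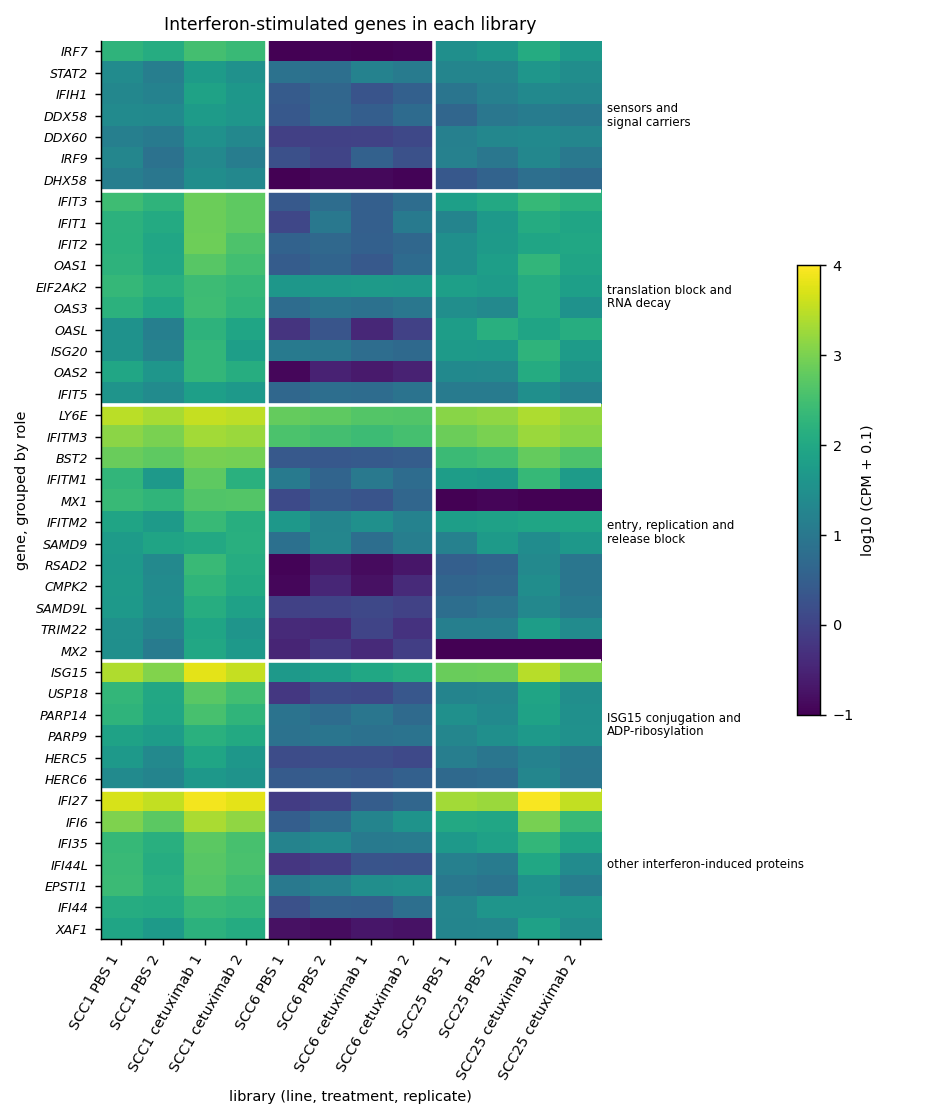
Level of each of the 42 genes (rows, grouped by role) in each of the 12 libraries (columns), as log10 of CPM plus 0.1. SCC1 is bright throughout, SCC25 intermediate and SCC6 dark except for LY6E, IFITM3, ISG15, EIF2AK2 and a few others, and MX1 and MX2 are at the bottom of the scale in SCC25.

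Gene by gene, 40 of the 42 members were higher in untreated SCC1 than in untreated SCC6, where 18.6% of the 17897 genes tested were higher by the same rule (FDR, the Benjamini-Hochberg adjusted p of the quasi-likelihood F-test of edgeR on UMI counts summed per library, under 0.05 over all genes). All 42 passed the filter on low counts, which a gene could do through SCC1 alone. The median member difference was 4.35 on the log2 scale. IFITM2 and ISG20 were not called, with log2 differences of 0.65 ± 0.46 (SE here and throughout) and 0.99 ± 0.58 (FDR = 0.288 and 0.206). Against SCC25, 25 members were higher in SCC1 (17.3% of all genes) and 1, OASL, was lower (23.4% of all genes), with a median of 1.33. With the replicate number as a block, 30 were higher and 3 lower (OASL, ISG20 and DDX60), against 25.8% and 28.9% of all genes. In every comparison of untreated lines this block was a single term for the replicate number, shared by all lines. Nothing in the labels links the same number in different lines. Leaving out the first SCC1 PBS library left 17 of these 26 calls. SCC25 was higher than SCC6 for 34 members (22.2% of all genes) and lower for 2, MX1 and MX2 (18.7% of all genes), with a median of 2.89. These comparisons share the untreated libraries, so that they are not independent of one another. Setting MX2, which had no UMI in untreated SCC25, at its bound left the medians as they were.

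Among the sensors and signal carriers, IRF7 and DHX58 were almost without counts in SCC6. IRF7, the factor that carries the late phase of interferon production, was at 179 and 127 CPM in the PBS libraries of SCC1 and at 31.0 and 44.4 CPM in those of SCC25, but 1 UMI was counted in both SCC6 PBS libraries together, against 22817 in SCC1. The ratio of rates was 30018, with a 95% counting interval from 5387 to 1185700. DHX58, the RNA sensor LGP2, was likewise at 3 UMIs in untreated SCC6 against 1729 in SCC1, a ratio of 758 (259 to 3680). These intervals cover counting error only. STAT2, which carries the signal from the receptor to the nucleus, differed far less, with 25.6 and 13.7 CPM in SCC1, 19.2 and 18.9 in SCC25 and 7.74 and 6.73 in SCC6. SCC1 and SCC25 did not differ beyond their spread for STAT2 (log2 difference -0.17 ± 0.33, FDR = 0.716). The other signal carrier, IRF9, stood at 19.6 and 7.48 CPM in SCC1, 15.9 and 9.55 in SCC25 and 1.59 and 0.983 in SCC6.

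The genes that block translation or degrade RNA stood in the order SCC1, SCC25, SCC6 for 8 of 10 members. OASL and ISG20 were the others, with higher means in SCC25 than in SCC1. OASL, a relative of the oligoadenylate synthetases that has lost their enzyme activity, was higher in untreated SCC25 (62.0 and 139.5 CPM) than in SCC1 (34.8 and 14.3 CPM). The log2 difference, SCC1 minus SCC25, was -2.28 ± 0.72 (FDR = 0.0273). ISG20, an exonuclease of single-stranded RNA, was at 53.7 and 50.7 CPM in SCC25 and 36.6 and 16.9 CPM in SCC1, called only with the block (FDR = 0.0164, without it 0.131). OAS2, a synthetase that activates the nuclease RNase L, was at 0.0199 and 0.204 CPM in SCC6 and at 89.7 and 42.8 CPM in SCC1, a log2 difference of 8.84 ± 0.88. By contrast EIF2AK2, the kinase PKR that halts translation when it meets double-stranded RNA, was present everywhere, at 43.5 and 46.7 CPM in SCC6 and 212 and 141 CPM in SCC1, and the SCC25 and SCC6 levels did not differ beyond their spread (log2 difference 0.28 ± 0.28, FDR = 0.458).

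Among the genes that act on entry, replication and release, LY6E and IFITM3 held most of what SCC6 expressed. LY6E, a lipid-anchored surface protein, was at 3048 and 2207 CPM in SCC1, 1284 and 1491 in SCC25 and 659.9 and 563 in SCC6. IFITM3, which keeps virions from fusing in endosomes, was at 377 and 313 CPM in SCC6. In the SCC6 PBS libraries LY6E took up 50.8% and 47.9% of the UMIs of the 42 genes and IFITM3 29.0% and 26.7%, while in SCC1 the shares were 17.2% and 19.5% and 7.75% and 8.71%. BST2, the tether that holds budding virions at the surface, was nearly without counts in SCC6, with 732 and 568 CPM in SCC1, 252 and 300.2 in SCC25 and 2.40 and 2.30 in SCC6. RSAD2 (viperin, which makes a chain-terminating nucleotide) was at 51.6 and 22.4 CPM in SCC1, 3.21 and 3.96 in SCC25 and 0.00996 and 0.126 in SCC6, and its difference between SCC1 and SCC25 was 3.14 ± 0.62 on the log2 scale (FDR = 0.00275).

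In the ISG15 group, ISG15 itself was at 2564 and 1142 CPM in SCC1, 732 and 751 in SCC25 and 48.0 and 63.5 in SCC6. USP18, which removes ISG15 and also damps the receptor, stood at 201 and 97.7 CPM in SCC1, 17.8 and 19.6 in SCC25 and 0.558 and 1.30 in SCC6. Both kept the order of the lines, although for ISG15 the difference between SCC1 and SCC25 passed the test only with the replicate block (FDR = 0.0483, without it 0.0725). Of the remaining interferon-induced proteins, IFI27, a small membrane protein of mitochondria, took up 28.4% and 31.1% of the UMIs of the 42 genes in untreated SCC1 and 33.6% and 27.4% in untreated SCC25. It was at 5039 and 3516 CPM in SCC1 and 2009 and 1803 CPM in SCC25, but at 0.658 and 0.973 CPM in SCC6. The log2 difference of SCC1 over SCC6 was 12.02 ± 0.62 and that of SCC25 over SCC6 11.05 ± 0.60. XAF1, a promoter of cell death, was at 0.0697 and 0.0486 CPM in SCC6 and 87.0 and 53.1 CPM in SCC1. EPSTI1, named for its induction in breast epithelium by stroma, was at 9.90 and 8.47 CPM in SCC25 and 10.6 and 15.9 CPM in SCC6, which did not differ beyond their spread (FDR = 0.235), against 257 and 146 CPM in SCC1.

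MX1 and MX2 were almost without counts in SCC25, untreated or treated. Both encode dynamin-like proteins that trap viral components, and both lie on chromosome 21 (MX2 at chr21:41362027-41409393 and MX1 at chr21:41420558-41459214, RefSeq on GRCh38.p14). MX1 was at 238 and 183 CPM in untreated SCC1 and MX2 at 31.2 and 12.1 CPM. In SCC25, 2 UMIs of MX1 and none of MX2 were counted in both PBS libraries together, and neither gene had a UMI in the cetuximab libraries. The ratio of MX1 rates between untreated SCC1 and SCC25 was 19832 (95% counting interval 5490 to 163770), and MX2 was at least 1279-fold higher in SCC1, taking 3 UMIs over both SCC25 libraries as the floor. Their neighbours shared the pattern. Among genes of chromosome 21 with a mean of at least 1 CPM in the 8 SCC1 and SCC6 libraries, 7 in unbroken order, BACE2, MX2, MX1, RIPK4, PRDM15, C2CD2 and ZBTB21 (chr21:41168160-42010360), stayed under 0.1 CPM in all 4 SCC25 libraries. RIPK4, for example, ranged from 8.67 to 18.4 CPM in the other lines and had no UMI in SCC25. The next expressed genes on either side were present in SCC25, SH3BGR at 0.716 to 1.78 CPM and SLC37A1 at 1.77 to 3.22 CPM. Genome-wide, 110 of 12626 genes met the same rule in SCC25 (0.871%), and for SCC6, where IRF7 and DHX58 met it, 266 of 12715 (2.09%). This run was looked up after the levels of MX1 and MX2 had been seen, and the copy number was not measured here.

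**Figure D2:**
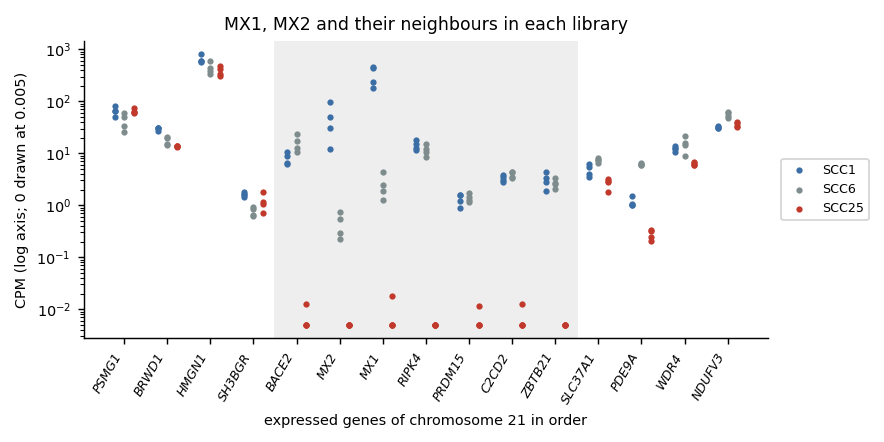
CPM (log axis, with 0 drawn at 0.005) of MX1, MX2 and the expressed genes around them, in their order on chromosome 21, with 1 point for each of the 4 libraries of a line. Inside the shaded run of 7 genes the SCC25 points lie under 0.1 CPM while SCC1 and SCC6 points lie above 0.2 CPM, and outside it all 3 lines have counts.

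To ask how these genes responded to EGFR blockade, cetuximab was compared with PBS in each line and in each same-numbered pair of replicates. In SCC1, all 42 members were higher with cetuximab in both pairs, with median log2 ratios of 1.10 and 1.23, where 52.9% and 61.9% of the 12196 genes at 1 CPM or more were higher and their medians were 0.0254 and 0.0790. In SCC25, 40 of 40 members at 1 CPM or more were higher in the first pair (median 1.73) and 36 of 40 in the second (median 0.429), against 51.0% and 59.96% of all genes. In SCC6, 19 and 20 of 31 members were higher, with medians of 0.267 and 0.180, and this was close to all genes, of which 63.8% and 65.6% were higher with medians of 0.198 and 0.137. In SCC25 the second pair moved far less than the first. These ratios are of plain CPM. The fold changes given from here on come from edgeR with TMM scaling, against which log2 ratios of plain CPM ran higher, by 0.0477 for SCC1, 0.230 for SCC6 and 0.0301 for SCC25.

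The groups did not overlap for 38 of the 42 members in SCC1, all higher with cetuximab, whereas 26.7% of all genes at 1 CPM or more were higher without overlap. In SCC25 this held for 32 of 40 members (17.2% of all genes), again all higher. In SCC6 it held for 9 of 31 members that were higher (36.3% of all genes) and for 3 that were lower (12.6% of all genes), IFI35, ISG20 and LY6E. Shares in SCC6 were thus below or near the background.

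Calls depended on whether the pairing of replicates was used, so values with the replicate number as a block are given beside those without. Without the block, 0 members were called in SCC1 (0.0168% of all genes were), 1 in SCC6 (3.81%) and 0 in SCC25 (0.0% of all genes). At an unadjusted p under 0.05 the counts were 27, 7 and 26 members, where 8.77%, 19.9% and 5.82% of all genes passed, and DESeq2 called 6 (1.53% of all genes), 2 (9.34%) and 4 (0.564%). Without the filter on low counts edgeR called 14 (0.938% of all genes), 3 (4.76%) and 11 (0.494%). With the block, 18 members rose and none fell in SCC1, where 2.46% of all genes rose and 1.99% fell, and 4 rose and none fell in SCC25, where 0.771% rose and 0.207% fell. In SCC6 with the block, 6 rose (9.94% of all genes) and 3 fell (10.1%), that is 9 of 42 where 20.1% of all genes were called, a share near that of all genes. In the fit without block the 42 genes had median log2 fold changes of 1.10 (SCC1), 0.0411 (SCC6) and 1.07 (SCC25). The SCC6 median had no stable direction and ran from -0.209 to 0.3002 when 1 of its libraries was left out. Without the first SCC25 library with cetuximab the SCC25 median was 0.547, and without the second 1.37.

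Across the 3 lines, 9 members rose and none fell without the block, where 2.53% of all genes rose. These were STAT2, RSAD2, TRIM22, ISG15, IFI6, IFI27, IFI44L, XAF1 and EPSTI1. With the block the count was 17 (6.03% of all genes), and the 9 were among them, and DESeq2 called 15 (9.9% of all genes) and edgeR without the filter on low counts 17 (4.03%). Leaving out 1 library at a time gave 3 to 11 calls, with 3 each without the first SCC1 library with cetuximab or the second SCC1 PBS library, 4 without the first SCC25 PBS library and 5 without the second SCC6 library with cetuximab. Without the first SCC25 library with cetuximab, 8 of the 9 were called. The median over the 42 genes was 0.830 on the log2 scale. A call across lines does not show a rise in every line. RSAD2, XAF1 and TRIM22 were near the floor in SCC6. With cells thinned to equal depth, RSAD2 had a UMI in 0% and 0.246% of SCC6 cells with PBS and 0.0386% and 0.122% with cetuximab. XAF1 had one in 0.113% and 0.041%, then 0.193% and 0.122%, and TRIM22 in 0.603% and 0.411%, then 1.24% and 0.793%. MX1, called with the block, had no UMI in SCC25 with cetuximab.

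**Figure D3:**
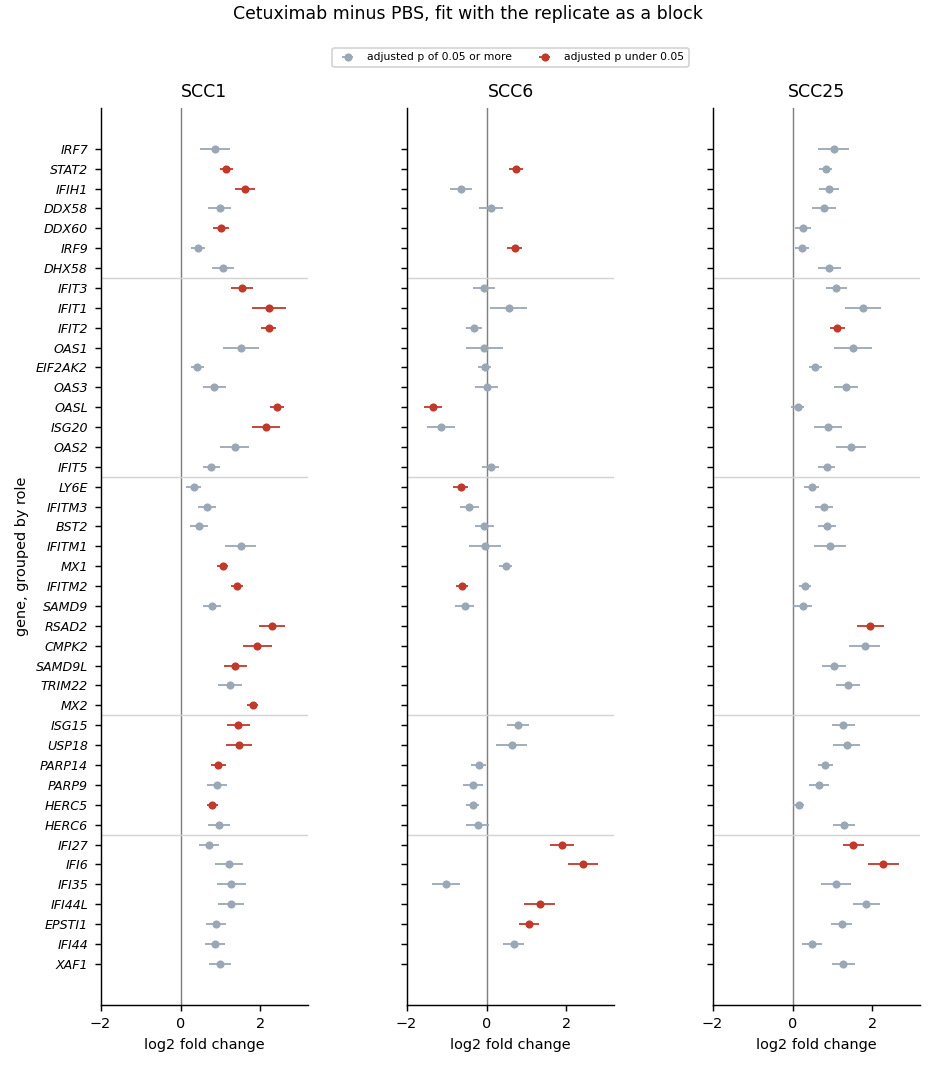
Log2 fold change (cetuximab minus PBS) ± SE of each member in each line, from the fit with the replicate as a block, for members with a mean of at least 1 CPM in the line or a call there. Red points are members with FDR under 0.05 (SCC1 has 18, SCC6 has 9 and SCC25 has 4). In SCC1 all points lie to the right of 0 and in SCC6 they scatter around it.

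Of the sensors and signal carriers, 3 of 7 rose in SCC1 with the block (STAT2, IFIH1 and DDX60), 2 of 7 in SCC6 (STAT2 and IRF9) and none of 7 in SCC25. Of all genes 2.46%, 9.94% and 0.771% rose in these lines with the block. STAT2 was at 25.6 and 13.7 CPM with PBS and 55.8 and 33.0 CPM with cetuximab in SCC1, at 7.74 and 6.73 (PBS) and 16.5 and 12.1 CPM (cetuximab) in SCC6 and at 19.2 and 18.9 (PBS) and 42.1 and 28.4 CPM (cetuximab) in SCC25. Every cetuximab library was above every PBS library of its line. Across lines its log2 fold change was 0.92 ± 0.18 (FDR = 0.0205). IFIH1, the sensor MDA5 of long double-stranded RNA, was at 20.7 and 16.1 CPM with PBS and 74.7 and 44.5 CPM with cetuximab in SCC1 (log2 fold change with the block 1.61 ± 0.25, FDR = 0.0161). IRF9 in SCC6 was at 1.59 and 0.983 CPM with PBS and 3.42 and 1.67 CPM with cetuximab, so that the groups just separated (FDR = 0.495, and 0.0341 with the block). IRF7 was at 31.0 and 44.4 CPM with PBS and 121 and 49.8 CPM with cetuximab in SCC25 and stayed at 0 or 1 UMI in each of the 4 SCC6 libraries.

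In the group of translation block and RNA decay the members' median in SCC1 was 1.53 (log2 fold change). With the block 5 of 10 rose in SCC1 (IFIT1, IFIT2, IFIT3, ISG20 and OASL), against 2.46% of all genes. IFIT2, which binds viral RNA and the initiation factor eIF3, was at 156 and 90.8 CPM with PBS and 801 and 407 CPM with cetuximab (log2 fold change 2.25 ± 0.39, FDR = 0.0976, with the block 2.21 ± 0.19 and 0.00247). OASL was at 34.8 and 14.3 CPM with PBS and 172 and 88.4 CPM with cetuximab (with the block 2.42 ± 0.17, FDR = 0.00105, and without it 0.34). In both genes each cetuximab library of SCC1 was above both PBS libraries. OASL in SCC25 was at 62.0 and 139.5 CPM with PBS and 81.8 and 132 CPM with cetuximab, a log2 fold change of 0.03 ± 0.68 with overlapping groups. In SCC6 it went from 0.468 and 1.99 to 0.263 and 0.811 CPM, again with overlapping groups. This was called as a fall with the block (FDR = 0.00645) and not without (FDR = 0.356). IFIT2 in SCC25 was at 31.4 and 52.8 CPM with PBS and 87.3 and 93.4 CPM with cetuximab (FDR with the block = 0.0403, without 0.726) and in SCC6 was at 3.72 and 4.79 CPM with PBS and 3.38 and 4.63 CPM with cetuximab, overlapping. ISG20 was at 36.6 and 16.9 CPM with PBS and 205 and 63.7 CPM with cetuximab in SCC1 and at 11.1 and 9.86 (PBS) and 5.999 and 5.10 CPM (cetuximab) in SCC6, the opposite direction, with the SCC6 change short of a call in both fits (FDR = 0.31 and 0.0502). IFIT1, which binds RNA that lacks a methylated cap, was at 163 and 112 CPM with PBS and 739.5 and 571 CPM with cetuximab in SCC1 and at 17.8 and 49.9 (PBS) and 122 and 87.6 CPM (cetuximab) in SCC25. EIF2AK2 passed the test in no line, with log2 fold changes of 0.42 ± 0.28 (SCC1), -0.04 ± 0.28 (SCC6) and 0.63 ± 0.28 (SCC25).

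Among the 12 genes of entry, replication and release, 6 rose in SCC1 with the block (IFITM2, MX1, MX2, RSAD2, SAMD9L and CMPK2) and 1 in SCC25 (RSAD2). Of all genes 2.46% and 0.771% rose in these 2 lines with the block. RSAD2 was at 51.6 and 22.4 CPM with PBS and 242 and 122 CPM with cetuximab in SCC1 and at 3.21 and 3.96 (PBS) and 22.2 and 9.04 CPM (cetuximab) in SCC25, without overlap in either line (across lines 1.91 ± 0.43, FDR = 0.0335). CMPK2, a mitochondrial nucleotide kinase whose gene lies beside RSAD2, was at 52.1 and 25.3 CPM with PBS and 191 and 107 CPM with cetuximab in SCC1. MX1 was at 238 and 183 CPM with PBS and 446 and 450.3 CPM with cetuximab in SCC1. In SCC6, LY6E and IFITM2 fell with the block. LY6E was at 659.9 and 563 CPM with PBS and 466 and 445 CPM with cetuximab (FDR = 0.0401, without the block 0.138) and IFITM2 at 46.9 and 19.0 CPM with PBS and 32.4 and 16.0 CPM with cetuximab (FDR = 0.0247, without the block 0.434). The LY6E groups did not overlap, whereas those of IFITM2 did, its first replicate being the higher with and without cetuximab, and without the first PBS library the IFITM2 fold change in the fit without block was 0.16 on the log2 scale. IFITM2, IFITM3 and IFITM1 are close copies, and reads that fit more than 1 of them may have been shared out or dropped, so their levels are uncertain. TRIM22, which restrains viral transcription, was besides RSAD2 the member of the group called across lines without the block (MX1 and CMPK2 were added with it), at 32.0 and 18.2 (PBS) and 85.7 and 40.7 CPM (cetuximab) in SCC1 and at 14.2 and 14.6 (PBS) and 59.3 and 25.3 CPM (cetuximab) in SCC25 (1.32 ± 0.27, FDR = 0.0237).

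In the group of ISG15 conjugation and ADP-ribosylation, 4 of 6 rose in SCC1 with the block (ISG15, HERC5, USP18 and PARP14) and none in the other lines. Of all genes 2.46% rose in SCC1 with the block. ISG15 was at 2564 and 1142 CPM with PBS and 6340.4 and 3689 CPM with cetuximab in SCC1, at 48.0 and 63.5 (PBS) and 96.4 and 128 CPM (cetuximab) in SCC6 and at 732 and 751 (PBS) and 2888 and 1148 CPM (cetuximab) in SCC25. All cetuximab libraries were above the PBS libraries of their line, and across lines the log2 fold change was 1.202 ± 0.25 (FDR = 0.0257). HERC5, the ligase that attaches ISG15, was at 51.4 and 22.8 CPM with PBS and 87.0 and 43.7 CPM with cetuximab in SCC1, where the groups overlapped and the call rested on the pairing (FDR = 0.649, with the block 0.0187).

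The remaining interferon-induced proteins held 4 of the 6 members that rose in SCC6. There, 4 of 7 rose with the block (IFI6, IFI27, IFI44L and EPSTI1), against 9.94% of all genes. The median over the 7 was 1.05 on the log2 scale without the block. IFI27 in SCC6 was at 0.658 and 0.973 CPM with PBS and 2.83 and 4.31 CPM with cetuximab. It was the member called without the block (log2 fold change 1.91 ± 0.43, FDR = 0.0381). This call was lost when any 1 of the 4 SCC6 libraries was left out and when the 4 SCC6 libraries were fitted alone. It was also lost when the 10% of cells with the largest member share were left out. IFI6, which steadies mitochondria, was at 2.96 and 5.79 CPM with PBS and 17.7 and 37.5 CPM with cetuximab (2.45 ± 0.62, FDR = 0.0577, with the block 0.0053). EPSTI1 was at 10.6 and 15.9 CPM with PBS and 29.9 and 34.0 CPM with cetuximab. These cetuximab levels of IFI27 and IFI6 in SCC6 were still below every PBS level of the same genes in SCC1 and SCC25. In SCC25, IFI27 was at 2009 and 1803 CPM with PBS and 9075 and 3414 CPM with cetuximab and IFI6 at 101.7 and 92.7 (PBS) and 949 and 242 CPM (cetuximab), the first cetuximab library well above the second (FDR with the block = 0.0418 and 0.041, without it 0.466 for each). In SCC1, where the levels were highest before treatment, IFI27 was at 5039 and 3516 CPM with PBS and 8238 and 6177 CPM with cetuximab and was not called (log2 fold change 0.71 ± 0.39, FDR = 0.691, with the block 0.158). Across lines, IFI6 had the largest change of the called members, 2.07 ± 0.38 (FDR = 0.0163), followed by RSAD2, IFI44L (1.57 ± 0.30) and IFI27 (1.42 ± 0.26). IFI35, a cytosolic leucine zipper protein, moved the other way in SCC6, at 16.9 and 23.1 CPM with PBS and 11.2 and 11.8 CPM with cetuximab without overlap, but was not called (FDR = 0.192, with the block 0.0792).

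The remaining 13 members, IFI35, IFIT5, IFITM1, IFITM3, OAS1, OAS3, IRF7, DDX58, HERC6, SAMD9, PARP9, BST2 and EIF2AK2, passed edgeR's test of a cetuximab effect neither with the block nor without it. Of these 13, DESeq2 called OAS1 and IRF7 across lines (FDR = 0.0331 and 0.0164), HERC6 in SCC25 (0.0278) and IFI35 for the interaction (0.0121), and edgeR without the filter on low counts called these 4 and OAS3. Of these, IFIT5, IFITM1, OAS1, DDX58, HERC6, SAMD9 and PARP9 are named after their values were seen. OAS1, a synthetase like OAS2, was at 171 and 101 CPM with PBS and 503 and 301 CPM with cetuximab in SCC1, without overlap (log2 fold change 1.52 ± 0.53, FDR = 0.415). DDX58, the sensor RIG-I, was at 24.7 and 23.0 CPM with PBS and 56.3 and 41.8 CPM with cetuximab (FDR = 0.549, with the block 0.098). IFITM1 was at 194 and 49.9 CPM with PBS and 563 and 148 CPM with cetuximab in SCC1, so that its groups overlapped although each pair rose by a like factor. Across lines the log2 fold changes of these 7 ran from 0.07 (SAMD9) to 1.06 (OAS1).

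To ask whether the lines differed in their response, the line-by-treatment interaction was fitted. Without the block 0 of the 42 members were called, as were 0.0% of all genes, with 10 members and 7.36% of all genes at an unadjusted p under 0.05, and DESeq2 called 4 (1.54% of all genes) and edgeR without the filter on low counts 5 (0.958%). With the block 4 were called (1.29% of all genes), namely OASL (FDR = 0.00875), IFIT2 (0.0191), IFITM2 (0.0191) and ISG20 (0.0396). In each of them the SCC1 fold change was positive, the SCC6 one negative and the SCC25 one between. For the other members a difference between lines was not shown, IFI27 and IFI6 included (FDR = 0.233 and 0.334 with the block).

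Single cells were used to ask whether a few cells carried these transcripts. Each cell was thinned to 15000 UMIs, which left out 851 shallower cells of 23914. In SCC1 the median cell held 257 and 168 UMIs from the 42 genes in the PBS libraries and 476 and 346 in the cetuximab libraries. In SCC25 the medians were 70 and 82 with PBS and 287 and 129 with cetuximab. In SCC6 they were 18 and 17 with PBS and 15 and 16 with cetuximab. No thinned cell of any library was without a UMI from the 42 genes. The shift in SCC1 and SCC25 took in most cells, since 98.8% and 90.3% of the SCC1 cells with cetuximab lay above the pooled median of the untreated SCC1 cells (201 UMIs), and 98.4% and 76.7% of the SCC25 cells above that of untreated SCC25 (77 UMIs). The untreated replicates themselves differed, with 77.2% and 29.3% of their cells above the pooled median in SCC1 and 43.7% and 53.6% in SCC25. In SCC6 the shares were 36.1% and 40.8% with cetuximab and 54.4% and 44.4% with PBS (17 UMIs). LY6E, IFITM3, IFI27 and ISG15 dominate these sums, and for the other 38 members alone the medians went from 78 and 49 to 187 and 125 in SCC1 and from 13 and 16 to 57 and 22 in SCC25, and were 3 in all 4 SCC6 libraries.

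**Figure D4:**
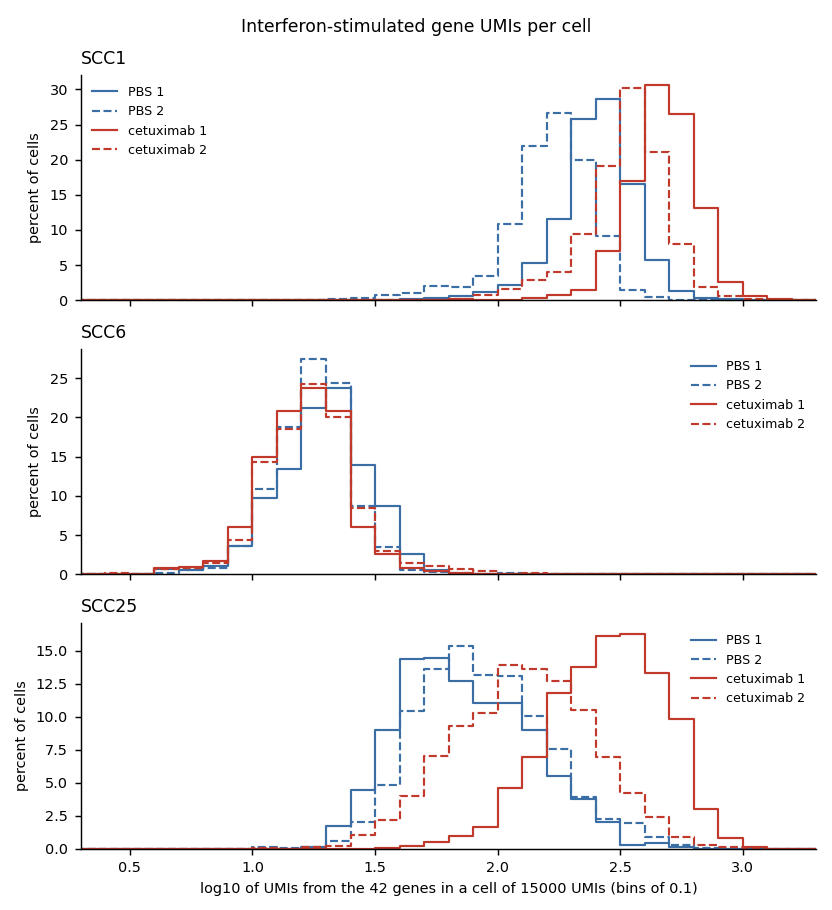
Percent of cells (vertical axis) by log10 of the UMIs that a cell of 15000 UMIs held from the 42 genes (horizontal axis), with 1 line per library. In SCC1 and SCC25 the whole distribution lies further to the right with cetuximab (red) than with PBS (blue), most of all in the first SCC25 replicate, and in SCC6 the 4 libraries lie on one another.

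Untreated SCC25 cells were the most uneven in their content of these transcripts. The 10% of cells richest in member UMIs held 17.2% and 17.2% of them in untreated SCC1, 19.4% and 20.2% in untreated SCC6 and 26.5% and 27.0% in untreated SCC25. With cetuximab the shares were 16.2% and 17.1%, 20.1% and 23.8%, and 20.2% and 25.7%, so that the first SCC25 library with cetuximab lay near the SCC6 libraries. An equal spread would give 10% without counting error. Counting error raises the share where a cell holds few of these UMIs, most of all in SCC6. The SCC6 and SCC1 shares are therefore not a like measure of unevenness. To see whether members rise together in 1 cell, cells were ranked by 21 of the members and the other 21 were measured in them. The top 10% held 2.84 and 2.95 times as many UMIs per cell as the rest in untreated SCC25, 1.65 and 1.64 times in untreated SCC1 and 1.43 and 1.48 times in untreated SCC6, so that cells rich in one set were rich in the other, most of all in SCC25. With cetuximab it was 1.99 and 2.75 times in SCC25, 1.60 and 1.65 times in SCC1 and 1.46 and 1.90 times in SCC6. When the 10% of cells with the largest member share were left out of each library, the members' median log2 fold change was 1.14 for SCC1, 1.09 for SCC25 and -0.104 for SCC6.

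OASL and IFIT2 were far more unevenly spread than the sum. If all cells of a library had the same level, the mean UMIs per cell would fix the share of cells with a UMI. For OASL in untreated SCC25 that share would be 61.1% and 86.6%, but 19.97% and 22.01% of cells had a UMI, and the top 10% of cells held 89.4% and 93.4% of the OASL UMIs. A gene like EGFR, present in every line, had 0.944 and 0.922 times the share that equal cells would give. IFIT2 showed the same, with 15.7% and 23.3% of untreated SCC25 cells having a UMI, which is 0.423 and 0.411 times the expected share. With cetuximab the OASL share was 38.2% and 23.5% and the IFIT2 share 35.4% and 24.6%, so that in the second replicate neither moved much, and the top 10% still held 92.6% of the OASL UMIs there. In SCC6, OASL had a UMI in 0.754% and 0.903% of untreated cells, and PTPRC, which squamous cells lack, had one in no more than 0.0914% of the cells of a library, at the same depth of 15000 UMIs. IFI6 had a UMI in 48.7% and 48.4% of SCC25 cells with PBS and in 98.2% and 72.4% with cetuximab, and in 3.73% and 5.75% and then 15.8% and 26.6% of SCC6 cells. RSAD2 in SCC1 had a UMI in 29.4% and 16.7% of cells with PBS and in 85.6% and 59.4% with cetuximab. The 95% Clopper-Pearson interval of such a share was at most 6.49 percentage points wide for any member and library. Over the members with at least 0.3 UMIs per cell, the median ratio of observed to expected share was 0.872 and 0.877 in untreated SCC25, 0.923 and 0.911 in untreated SCC1 and 0.972 and 0.973 in untreated SCC6, where 5 and 6 members reached that level. The SCC6 medians thus leave out most members. OASL and IFIT2 were not alone, since 5 of 21 and 7 of 26 such members lay below 0.7 in untreated SCC25. In untreated SCC1 it was 3 of 40 and 2 of 32, with RSAD2 the lowest at 0.529 and 0.504. In SCC6 the ratio for IFI6 was 0.75 and 0.64 with PBS and 0.67 and 0.57 with cetuximab. For IFI27 it was 0.83 and 0.64, then 0.64 and 0.56, and for EPSTI1 0.95 and 0.95, then 0.92 and 0.92.

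**Figure D5:**
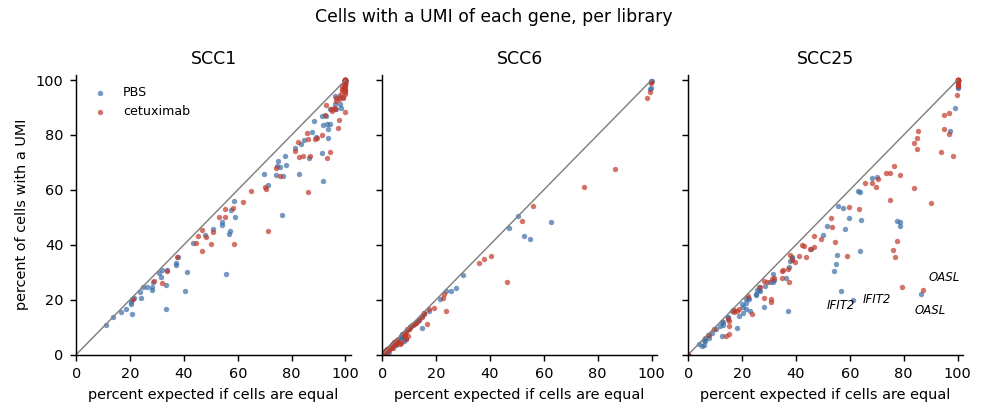
Percent of thinned cells with a UMI (vertical axis) against the percent expected if all cells of the library had the same mean (horizontal axis), with 1 point for each member and library and the line of equality. In SCC25 OASL and IFIT2 lie far below the line, at 22.01% against 86.6% for OASL in the second PBS library, while most points of SCC1 and SCC6 lie near it.

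The interferons themselves were rare in every library. Of 11 ligand genes 5 passed the filter on low counts, and IFNA1, IFNA2, IFNA5, IFNW1 and IFNG stayed at or under 0.0124 CPM. IFNB1, interferon beta, was at 0.160 and 0.0870 CPM in the PBS libraries of SCC1 and 1.47 and 0.241 CPM with cetuximab, and was not called (FDR = 0.451). IFNL1, a type III interferon, was at 0.284 and 0.401 CPM in untreated SCC25 and 0.511 and 1.5003 CPM with cetuximab, and IFNL3 at 0.0371 and 0.0624 CPM without and 0.568 and 0.717 CPM with it. IFNL3 rose across lines (3.75 ± 0.87, FDR = 0.0497), although it had no UMI in any SCC6 library. IFNL2 and IFNL3 are near-identical copies, so that their counts cannot be told apart. Few cells held these UMIs. In the second SCC25 library with cetuximab, 37 of 1993 cells held the 318 UMIs of IFNB1 and IFNL1 to IFNL3, and 1 cell alone held 172. In the 4 SCC25 libraries the median cell with a ligand UMI held 221, 229, 389 and 333 UMIs from the 42 genes and the median cell without one 69, 82, 286 and 127, in the order PBS, PBS, cetuximab, cetuximab. The cells with a ligand UMI, 11, 21, 14 and 37 in number, were also deeper, with medians of 46822, 45989, 51374 and 55773 UMIs against 32642, 41499.5, 42289.5 and 48059.5 before thinning. The part of depth in this was not tested. In the SCC1 libraries the median cell with a ligand UMI held 522, 172, 519.5 and 441 UMIs from the 42 genes, in the same order. The median SCC1 cell without one held 256, 168, 474.5 and 346, so that the second PBS library showed almost no gap. In SCC6 only 1 to 3 cells of a library held a ligand UMI, too few for a median.

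Receptor genes differed between lines more than with treatment. IFNAR1 was at 143 and 119 CPM in untreated SCC1 against 17.0 and 18.7 in SCC6 and 18.8 and 15.6 in SCC25, and IFNAR2 at 56.8 and 56.8 CPM against 8.92 and 12.2 (SCC6) and 10.8 and 10.2 (SCC25). IFNLR1, the chain particular to type III interferon, was at 3.15 and 3.25 CPM (SCC1), 1.07 and 1.28 (SCC6) and 4.18 and 2.95 (SCC25). Of the 9 receptor and JAK genes none was called with cetuximab without the block, and with it 1, IFNGR2, fell in SCC6 (FDR = 0.0479). Of all genes 10.1% fell in SCC6 with the block. IRF1, which answers interferon gamma more than type I interferon, fell in SCC6 at 27.8 and 16.3 (PBS) and 13.3 and 9.85 CPM (cetuximab) with the block (FDR = 0.00433, without it 0.0557). IRF3, which starts interferon transcription, also fell in SCC6 with the block (-0.49 ± 0.13, FDR = 0.034). IRF1 was the 1 factor of 7 tested whose change differed between lines with the block (FDR = 0.0491), against 1.29% of all genes.

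Of 17 genes that lean to interferon gamma, 3 rose across lines without the block (GBP1, CXCL10 and CXCL11) and 4 with it, CXCL9 being added. Of all genes 2.53% rose across lines without the block and 6.03% with it. CXCL10, a chemokine for T cells, was at 27.4 and 9.66 CPM with PBS and 402 and 69.0 CPM with cetuximab in SCC1 and at 8.24 and 12.5 (PBS) and 201 and 25.1 CPM (cetuximab) in SCC25, and stayed at or under 0.0667 CPM in SCC6 (across lines 3.39 ± 0.66, FDR = 0.019). GBP1, a large GTPase, was at 68.0 and 51.9 CPM with PBS and 234 and 129 CPM with cetuximab in SCC1, at 2.29 and 3.10 (PBS) and 3.96 and 8.68 CPM (cetuximab) in SCC6 and at 56.1 and 85.3 (PBS) and 186 and 183 CPM (cetuximab) in SCC25, and was called in all 3 with the block (FDR = 0.0166, 0.038 and 0.0429). GBP4, CXCL10, CXCL11, GBP1 and TAP1 rose in SCC1 with the block, where 2.46% of all genes rose. In SCC6 with the block, where 10.1% of all genes fell, PSMB8 and PSMB9, subunits of the immunoproteasome, fell (-0.86 ± 0.19 and -1.17 ± 0.25), as did HLA-DRA, which was under 0.1 CPM in all 4 SCC6 libraries. Of 12 upstream sensing genes tested, ZBP1 rose across lines (2.78 ± 0.51, FDR = 0.0166) and ADAR was added with the block (0.40 ± 0.10, FDR = 0.0386). ZBP1 was near the floor, at 0.563 CPM in untreated SCC1, 0.331 in SCC25 and 0.0148 (3 UMIs) in SCC6, PBS libraries pooled. In SCC1 with the block TMEM173 (the adaptor STING), TLR3 and ZBP1 rose, and in SCC6 IFI16 fell (-1.11 ± 0.22, FDR = 0.0117). TLR3 had no UMI in any SCC25 library. Of 6 negative regulators, SOCS1 rose in SCC1 and across lines with the block (FDR = 0.0382 and 0.0383), and in SCC6 SOCS3 rose and PTPN2 fell (FDR = 0.0438 and 0.0172).

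Outside the list, the 5 genes whose levels over the 12 libraries were most like the mean of the 42 standardised members included SLC15A3 (Pearson r = 0.997), PARP10 (0.991), PARP12 (0.990) and B2M (0.988), among 7542 genes with a mean of at least 10 CPM. The 4 libraries of a line share its level, so the 12 points are not independent and no p is given. SLC15A3, a transporter of peptides and histidine, was at 56.2 and 31.5 CPM in SCC1 with PBS and 139 and 94.1 CPM with cetuximab, at 8.99 and 10.1 and then 27.2 and 13.4 CPM in SCC25, and under 0.1 CPM in SCC6. B2M, the light chain of class I antigen presentation, was at 4069 and 3219 CPM in SCC1 with PBS and 7660 and 6160 with cetuximab.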

How the data were processed

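Single-cell RNA sequencing libraries (10x Genomics 3′ chemistry) of SCC1, SCC6 and SCC25 cells were deposited as 1 table of counts per line, with UMI counts per gene and cell that the authors made with Cell Ranger on GRCh38 per the submitters' processing notes. The Cell Ranger version and the annotation are not given in the sources used here. No cell was left out here, so 23914 cells in 12 samples were used. No doublet caller was run and how doublets were treated is not given in the sources used here, so that doublets may be among the cells, and an alternative without the cells of most UMIs is named below. Gene rows sharing a symbol (24 symbols) were summed. Groups came from the labels.

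The 42 genes, the roles and the lists of other pathway genes were chosen with earlier results of these data known. UMI counts were summed per library and fitted with edgeR 4.0.16 (R 4.3.3), using the quasi-likelihood F-test, TMM scaling, filterByExpr over the 6 groups and Benjamini-Hochberg adjustment over the 17897 genes kept. All 42 genes passed this filter, 38 of them in SCC6 and 40 in SCC25 when 1 line was fitted alone. The threshold was an adjusted p (FDR) of 0.05. The SE of a log2 fold change was taken as its absolute value divided by the square root of F. It is thus approximate, above all for genes almost without counts in a line. CPM are UMI counts scaled to 1000000 per library. The study tested single cells, but cells are not replicates, so libraries were tested here. Labels and methods do not say whether the 2 replicates of a group were separate cultures, so p-values measure only the spread between these samples, which may be technical. Deviations of same-numbered libraries from their group means correlated across genes (r = 0.377 in SCC1, 0.349 in SCC6 and 0.598 in SCC25), with the numbers taken from the sample titles, and this pairing came from the data and not from a stated shared day or culture. With 2 libraries a group these correlations cannot show that the numbers mark a shared culture. For cetuximab against PBS the block was set within each line. Between untreated lines it was a single term for the replicate number over all lines, for which no such correlation was taken.

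For the single-cell values, UMIs of a cell were drawn at random down to 15000 (Python 3.11.15, numpy 2.4.6, pandas 2.3.3), and Clopper-Pearson intervals (95%, scipy 1.17.1) cover counting error only. Named members were those called with cetuximab with or without the block, the 5 of largest change at 20 CPM or more and the 5 of highest PBS level in each line, the 5 of smallest interaction p and the 5 of largest called difference in each comparison of untreated lines. Named pathway genes were the called ones and 8 chosen beforehand. A few genes that these rules name are not reported here. Alternatives were DESeq2 1.42.0, DESeq2 size factors in edgeR, no filter on low counts, a replicate block, each line alone and leaving out each library. They also included cells with at most 20% mitochondrial UMIs and without the 5% with most UMIs. Another left out the 10% of cells with the largest share of their UMIs from the members. The last were thinning to 10000 UMIs, no thinning and the top 5% in place of the top 10% of cells. The scripts were tested on simulated data.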

Additional observations from a re-analysis of the deposited data

Results flagged for a closer look

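Across the 3 lines, 4 members responded to cetuximab in different ways by the interaction of line and treatment with the replicate number as a block, and none without it (lowest FDR 0.353, edgeR). OASL, an inactive relative of the oligoadenylate synthetases, had an FDR of 0.00875, with log2 fold changes in that fit of 2.42 ± 0.17 (SE) for SCC1, -1.35 ± 0.23 for SCC6 and 0.13 ± 0.16 for SCC25. IFIT2, which binds viral RNA, had an FDR of 0.0191, with 2.21 ± 0.19 (SCC1), -0.32 ± 0.19 (SCC6) and 1.12 ± 0.18 (SCC25). IFITM2, which keeps virions from fusing, had an FDR of 0.0191, with 1.41 ± 0.15 (SCC1), -0.62 ± 0.15 (SCC6) and 0.32 ± 0.15 (SCC25). ISG20, an RNA exonuclease, had an FDR of 0.0396, with 2.15 ± 0.35 (SCC1), -1.15 ± 0.35 (SCC6) and 0.88 ± 0.35 (SCC25). All 4 were higher with cetuximab in both pairs of SCC1 and lower in both pairs of SCC6. OASL rests on 0.263 to 1.99 CPM in SCC6, where its groups overlapped. In the second SCC6 PBS library 0.903% of thinned cells had an OASL UMI, which is 0.338 times the share that equal cells would give. OASL and IFIT2 were also spread very unevenly over the cells of SCC25, and the part of this in the result was not tested.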

How the results depend on the processing

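Of 145 values under the alternatives, 116 stayed within 1.5 times the reported count of calls or within 1 SD between replicates of the reported value, and 29 did not. Some of the 116 are 0 calls against 0 in fits that called few genes of any kind, so they say little. The limits are also wide. For the SCC25 median of member UMIs the SD was 111.7, so that 53 and 25 in place of 132 count as within it. A count within these limits need not hold the same genes: across lines the 9 calls without the second SCC6 PBS library held 4 of the 9 reported. The median log2 fold change over the 42 genes kept its sign in SCC1 (0.836 to 1.501), SCC25 (0.546 to 1.37) and across lines (0.668 to 0.956). In SCC6, where 0.0411 was reported, it was -0.209 without the second library with cetuximab and -0.206 without the first PBS library. Without the 10% of cells with the largest member share the SCC6 median was -0.104. The fitted fold change took both signs over the alternatives for 21 members in SCC6, 7 in SCC25, 1 in SCC1 and 3 across lines. DESeq2 called 6 members in SCC1, 2 in SCC6, 4 in SCC25, 15 across lines and 4 for the interaction, and edgeR without the filter on low counts called 14, 3, 11, 17 and 5 (0.938%, 4.76%, 0.494%, 4.03% and 0.958% of all genes), against 0, 1, 0, 9 and 0 as reported. The replicate block, which uses the pairing of numbers, gave 18, 9, 4, 17 and 4. Between untreated SCC1 and SCC25, where the replicate term was shared by all lines, it gave 33 in place of 26. The causes of these differences were not tested. SCC6 fitted alone, or without the 10% of cells with the largest member share, gave 0 calls. Leaving out 1 library gave 0 to 0 calls in SCC6 and 3 to 11 across lines, and between untreated SCC1 and SCC25 17 to 25, the 17 without the first SCC1 PBS library. In the single cells, an alternative chosen after seeing the data left out LY6E, IFITM3, IFI27 and ISG15. It moved the difference in median member UMIs per cell (cetuximab minus PBS, mean of 2 libraries each) from 198.5 to 92.5 in SCC1, from 132 to 25 in SCC25 and from -2 to 0 in SCC6, and the difference in the share held by the top 10% of cells in SCC1 from -0.579 to -1.334 percentage points. Leaving out 1 library, the median difference ran from 133.5 to 263.5 UMIs in SCC1, from -2.5 to -1.5 in SCC6 and from 53 to 211 in SCC25, where 132 was reported, and the 53 is without the first SCC25 library with cetuximab and the 211 without the second. With 2 libraries a group and an unblocked test, a missing call is no sign of a missing change, and depth limits MX1 and MX2 in SCC25 and IRF7 and DHX58 in SCC6 to bounds or wide ratios.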
